A study of Mus musculus with 32 samples.

Results

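The 10 genes described here make, sense or supply prostaglandins and leukotrienes: Pla2g4a, Ptgs1, Ptgs2, Ptges, Ptgds, Hpgds, Ptger4, Alox5, Alox5ap and Ltc4s. They were taken by their row names from the 2 gene count tables of the study, one for brain tissue and one for sorted subdural CNS-associated macrophages (sdCAMs, the leptomeningeal and perivascular macrophages at the borders of the brain), and all 10 of the 33280 genes were present in both. After stroke, Ptgs2 rose ipsilaterally in tissue (log2 fold change 1.89, SE 0.349, 8 mice, with both treatments averaged) in the main fit, which was unpaired. This call held in 14 of 15 alternative analyses. It was lost when the hemispheres of 1 mouse, labelled in conflicting ways, were exchanged. In a fit that compares the 2 hemispheres of each mouse, Pla2g4a (0.80, edgeR adjusted p = 0.00187) and Ptges (0.62, adjusted p = 0.0424) were called in tissue as well. In sdCAMs, the main fit was averaged over treatments too, with 8 contralateral and 6 ipsilateral libraries. There Alox5 (1.16, SE 0.173), Ptgs1 (0.71, SE 0.206) and Pla2g4a (0.66, SE 0.194) rose, and Ptgds (-2.15, SE 0.363) fell. Ptges was called lower too (edgeR adjusted p = 0.0172), but its ipsilateral CTL counts were too low for a fold change. Of 15 alternative analyses in sdCAMs, the call held in 15 for Ptgds, 14 for Alox5, 13 for Ptges and 10 for Ptgs1, but in only 6 for Pla2g4a. None of these alternatives took account of the other cells in the libraries. For the same average, all 6 endothelial and all 6 oligodendrocyte markers were called lower ipsilaterally, and 7 of 8 border macrophage markers higher. The part of cell composition in the changes of the members was not tested.

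Prostaglandins and leukotrienes are lipid mediators made from arachidonic acid. Cytosolic phospholipase A2 (Pla2g4a) releases the fatty acid from membranes, and the 2 cyclooxygenases, the widely expressed Ptgs1 and the inducible Ptgs2, turn it into prostaglandin H2. Terminal synthases then make the final prostaglandins: Ptges makes prostaglandin E2, and Ptgds (the lipocalin type) and Hpgds (the hematopoietic type) make prostaglandin D2, while Ptger4 encodes the EP4 receptor for prostaglandin E2. In the other branch, Alox5 together with its membrane partner Alox5ap makes leukotriene A4, from which Ltc4s makes the first cysteinyl leukotriene. In the brain, Ptgs2 is a known early gene of ischemia, Ptgds is abundant in leptomeninges and oligodendrocytes, and Hpgds and Ptgs1 are known microglial genes.

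WT C57BL/6JCrl mice received vehicle (CTL, 4 mice, called A2, A3, A4 and B1 in the labels) or BLZ945 by oral gavage at 200 mg per kg on 7 consecutive days (4 mice, C2, C3, C4 and D1). BLZ945 inhibits the CSF-1 receptor, on which microglia and CAMs depend for survival, so that BLZ945 mice carried repopulated macrophages. All 8 mice had a thromboembolic middle cerebral artery occlusion 8 weeks later, in which a clot is formed by thrombin injected into the artery, and both hemispheres were collected 1 day after it. The contralateral hemisphere of the same animal was the only control for stroke: no group without stroke was analysed here. The surgery also opened the skull, removed the dura and placed a pipette in the artery. No group with the surgery alone was analysed, so its effects and those of the occlusion cannot be told apart. Each hemisphere gave a tissue library, and sdCAMs were sorted from it as Ly6C- Ly6G- CD11c- CD45+ CD11b+ CD206+ cells with the choroid plexus removed.

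Tissue libraries (16) held 9288717 to 12781505 counts. The ipsilateral sdCAM libraries of mice A3 and C2 held only 54055 and 55155 counts and are labelled as degraded RNA. They were left out, which left 14 sdCAM libraries of 7397393 to 11081409 counts and 3 ipsilateral libraries per treatment. For mouse A3 the tissue count table names the 2 hemispheres the other way round from the sample titles, and the titles were followed. Levels are given as CPM, read counts relative to the library size, with library sizes scaled by the trimmed mean of M values (TMM), and 3 counts, taken as the limit of detection, correspond to 0.234 to 0.321 CPM in tissue and 0.253 to 0.389 CPM in sdCAMs. A gene was called when edgeR's quasi-likelihood test gave a Benjamini-Hochberg adjusted p under 0.05 over all genes tested (18968 in tissue, 18297 in sdCAMs) with a log2 fold change beyond 0.59. All 10 members passed the filter on low counts in both tables.

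In the sdCAM libraries all 8 border macrophage markers (such as Mrc1 and Lyve1) were detected in every group, with a summed level of 1067 to 6343 CPM, and 7 microglia markers (such as P2ry12) summed to 5628 to 25619 CPM. Markers of other cells were present too, and their lists differed in direction. Averaged over treatments, 1 of 6 monocyte and 1 of 5 dendritic cell markers were called higher ipsilaterally, and 1 of 4 tested platelet markers was called lower. The monocyte markers summed to 458 to 2090 CPM contralaterally and 1566 to 3273 CPM ipsilaterally. The 8 neutrophil markers, none of them called, had median sums of 274 CPM contralaterally and 383 CPM ipsilaterally in CTL. In BLZ945 the medians were 2124 and 373 CPM, with contralateral libraries from 87.4 to 2919 CPM. The 6 endothelial markers summed to 693 to 1902 CPM in contralateral and 29.2 to 136 CPM in ipsilateral libraries, and all 6 were called lower when both treatments were averaged. The 6 oligodendrocyte markers summed to 668 to 6096 CPM and 225 to 817 CPM, with all 6 called lower. Lower calls were also made for 4 of 5 mural, 4 of 6 astrocyte, 3 of 6 mast cell, 3 of 5 choroid plexus, 2 of 3 tested red blood cell, 2 of 6 neuron and 1 of 8 leptomeningeal fibroblast markers. Epithelial markers of the choroid plexus were most uneven, from 0.502 CPM in the ipsilateral library of mouse A2 to 37595 CPM in the contralateral library of mouse C4. In bulk RNA, fewer cells of a type and less RNA per cell cannot be told apart.

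The promoters of 3 genes are shown because they belong to the gene that rose in tissue (Ptgs2) and to the cyclooxygenase and lipoxygenase that rose in sdCAMs (Ptgs1 and Alox5). Each run is the 250 bases before the RefSeq start on GRCm38.p6, 5′ to 3′ on the gene's strand, and capitals mark matches, on either strand, to GAGGAA (a core of sites of PU.1, a macrophage transcription factor) or TTNNGNAA (the C/EBP form). They lie at chr1:150099781-150100030 (plus strand), chr2:36230176-36230425 (plus strand) and chr6:116461179-116461428 (minus strand).
Ptgs2: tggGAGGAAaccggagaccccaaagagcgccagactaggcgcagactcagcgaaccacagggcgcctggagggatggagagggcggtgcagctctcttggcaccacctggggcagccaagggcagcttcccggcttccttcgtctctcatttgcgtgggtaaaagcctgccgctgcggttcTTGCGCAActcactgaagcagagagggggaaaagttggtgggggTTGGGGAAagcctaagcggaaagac
Ptgs1: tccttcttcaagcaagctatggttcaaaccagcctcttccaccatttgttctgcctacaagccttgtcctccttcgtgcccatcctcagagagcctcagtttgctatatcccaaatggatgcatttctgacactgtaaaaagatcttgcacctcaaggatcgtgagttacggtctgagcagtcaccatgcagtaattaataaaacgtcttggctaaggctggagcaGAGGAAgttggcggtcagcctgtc
Alox5: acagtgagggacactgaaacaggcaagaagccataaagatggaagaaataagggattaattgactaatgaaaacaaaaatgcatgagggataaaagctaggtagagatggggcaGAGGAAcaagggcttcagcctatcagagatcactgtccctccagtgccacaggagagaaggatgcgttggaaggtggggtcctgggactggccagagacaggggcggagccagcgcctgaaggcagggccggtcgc
All 3 held GAGGAA, beginning 247 bases before the start in Ptgs2, 24 in Ptgs1 and 136 in Alox5, and 23.4% of 32536 mouse promoter windows of the same length held it. Of the 9 members with a window, Hpgds (49 bases before the start) and Ptges (149) held it as well, although Ptges fell in sdCAMs. Pla2g4a, which rose there, did not hold it, nor did Ptgds, Ptger4 or Ltc4s. TTNNGNAA occurred in Ptgs2, at 69 and 25 bases before the start, and in Ptges, Ptgds, Hpgds and Pla2g4a, against 36.8% of all windows. The distal part of the Ptgs2 window overlaps an annotated antisense RNA, Ptgs2os. A match describes letters, not a bound site.

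In the annotation used here for gene coordinates, exon lengths and overlaps (GENCODE M21, GRCm38), Ptgs2 spans chr1:150100031-150108227 and Alox5 chr6:116410077-116461178. The read counts per gene were made by the authors, and the annotation they used for these counts is not given. It may differ from M21, so levels per kb of exon are approximate. Ltc4s, Alox5ap, Ptgs1 and Ptger4 share exonic bases with genes on the other strand, 26.4% of the Ltc4s exons with the antisense RNA Gm26542 and 15.3% of Ptger4 with a pseudogene. The library kit does not mark strand and no strand setting is given for the counting, so these levels are less certain.

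The level order of the members, which is comparable between genes only per kb of exon, differed between tissue and sdCAMs. In contralateral CTL tissue, Ptgds stood at 390 ± 37.0 CPM per kb (SD, n = 4), followed by Ptgs1 at 3.63 ± 0.438 and Ptgs2 at 2.16 ± 0.584. The other 7 lay between 0.220 for Ptger4 and 1.48 for Ltc4s. The ranges of neighbours from Ptgs2 down to Pla2g4a overlapped, as did those of Alox5 and Ptger4. In contralateral CTL sdCAMs, Ptgds again came first at 463 ± 219 CPM per kb (n = 4) and Ptgs1 second at 166 ± 32.7, where the range of Ptgs1 overlapped that of Alox5ap (105 ± 19.7). Alox5ap and Ltc4s (92.0 ± 14.1) overlapped too and stood above Hpgds (51.7 ± 6.98), which in turn stood above Alox5 (15.7 ± 2.89) and Pla2g4a (15.4 ± 1.48), whose ranges overlapped. Ptgs2 (4.63 ± 4.46), Ptger4 (3.17 ± 1.96) and Ptges (2.73 ± 1.11) came last and overlapped, below the other 7. Ptgds did not come first in ipsilateral sdCAMs. In CTL it stood at 86.8 ± 53.3 CPM per kb (n = 3), below the ranges of Ptgs1 (237 ± 34.1). Its range there overlapped those of Alox5ap (127 ± 19.7) and Ltc4s (94.4 ± 33.6). In BLZ945, Ptgds (157 ± 74.3) came after Ptgs1 (214 ± 45.4), with overlapping ranges (n = 3).

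Side by side in CPM, and with no test because tissue and sorted cells were prepared differently, contralateral CTL sdCAMs held 83.4 times the tissue level of Alox5ap, 69.9 times that of Alox5, 62.2 times that of Ltc4s and 51.5 times that of Hpgds. The ratio was 45.6 for Ptgs1 and 14.4 for Ptger4, with Pla2g4a between them. It was 2.97 for Ptges, 2.15 for Ptgs2 and 1.19 for Ptgds. On this side of CTL mice, the leukotriene genes and the hematopoietic prostaglandin D synthase therefore differed most between the 2 kinds of library, and the lipocalin synthase least. In the same groups, median marker sums in sdCAMs and tissue were 14169 and 181 CPM for microglia. For border macrophages they were 3085 and 8.19 CPM. Ipsilaterally, the ratio was 0.251 in CTL and 0.422 in BLZ945 for Ptgds, and 0.0598 and 0.534 for Ptges.

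The comparison of hemispheres asked how these genes differed in tissue between the lesioned and the contralateral side after stroke and its surgery. Ptgs2, the inducible cyclooxygenase, was higher on the ipsilateral side in 8 of 8 mice. In CTL tissue it measured 12.0, 11.9, 6.40 and 9.16 CPM contralaterally in mice A2, A3, A4 and B1, and 22.3, 15.2, 14.9 and 42.3 CPM ipsilaterally. In BLZ945 tissue it measured 8.89, 13.4, 7.63 and 9.46 CPM contralaterally in mice C2, C3, C4 and D1, and 84.1, 101, 13.7 and 28.6 CPM ipsilaterally. The hemispheres did not overlap in either treatment, where 2.45% of all genes in CTL and 4.2% in BLZ945 were higher without overlap. The ipsilateral Ptgs2 values of mice C2 and C3 stood far above all others.

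**Figure D1:**
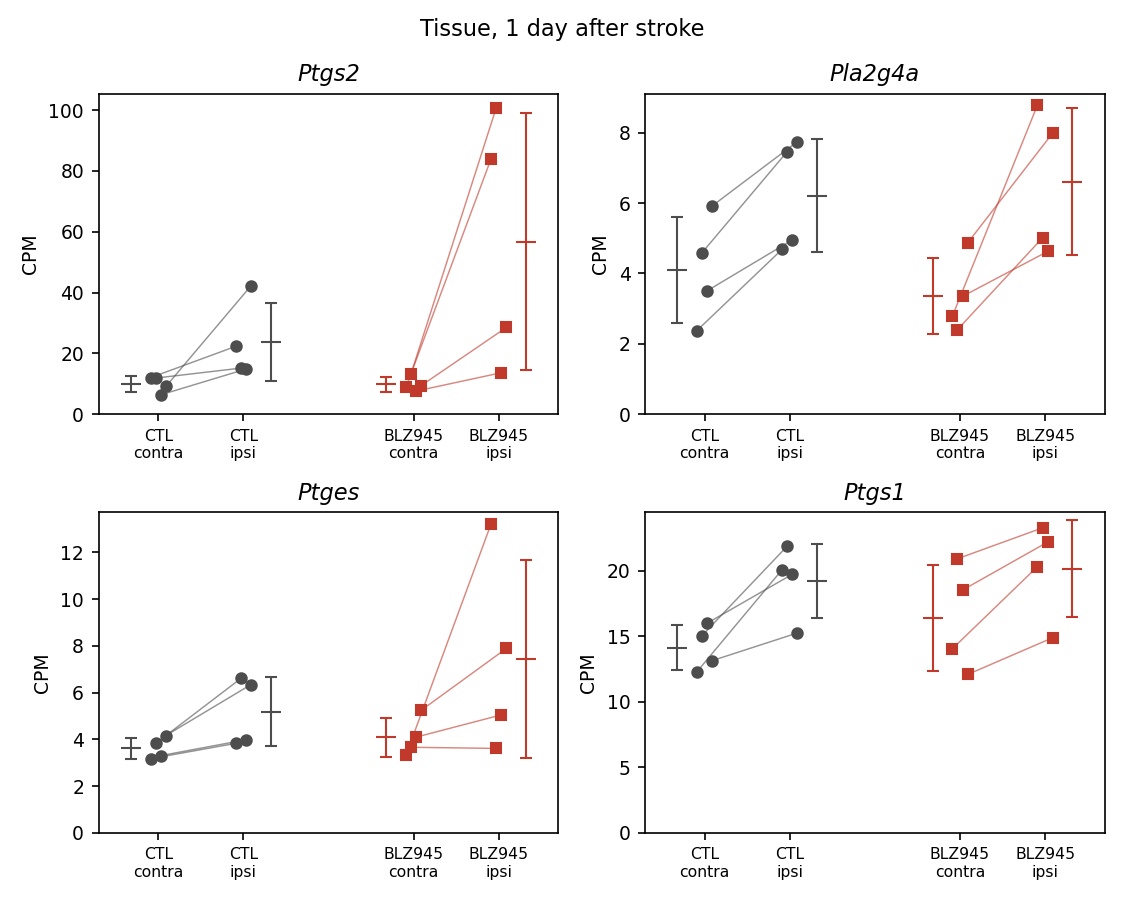
Levels of 4 genes in tissue (y axis, CPM) by treatment and hemisphere, 1 point per library, with a line joining the 2 hemispheres of a mouse and bars giving the mean ± SD of 4 libraries. Ptgs2 lies between 6.40 and 13.4 CPM contralaterally and reaches 84.1 and 101 CPM in 2 ipsilateral BLZ945 libraries, and Pla2g4a and Ptgs1 are higher ipsilaterally in every mouse.

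Ptgs2 rose in BLZ945 tissue from 9.84 ± 2.48 to 56.8 ± 42.2 CPM (SD, n = 4), a log2 fold change of 2.53 (SE 0.499, edgeR adjusted p = 0.0137). It was the only member of 10 called there, against 1.12% of all genes called higher and 0.0369% called lower. In CTL tissue the level was 9.87 ± 2.67 CPM contralaterally and 23.7 ± 12.9 CPM ipsilaterally, a log2 fold change of 1.25 (SE 0.490) that was not called (edgeR adjusted p = 0.636). No member was called in CTL by edgeR or DESeq2, where edgeR called 0.443% of all genes higher and 0% lower, and 2 members, Ptgs1 and Ptgs2, had an unadjusted p under 0.05. With both treatments averaged, which used the same libraries, Ptgs2 was again the only call (log2 fold change 1.89, SE 0.349, edgeR adjusted p = 0.00434), against 1.93% of genes called higher and 0.0738% lower.

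In the unpaired fit, the Ptgs2 call in BLZ945 tissue depended on mice C2 and C3. Without mouse C2 the log2 fold change was 2.23 (edgeR adjusted p = 0.153), and without mouse C3 it was 2.28 (adjusted p = 0.0596). With the hemispheres of mouse A3 exchanged, as the table's column names have them, the adjusted p was 0.0782 in BLZ945 and 0.0687 for the average, at log2 fold changes of 2.53 and 1.81. Without mouse A3 altogether both calls held (adjusted p = 0.0257 and 0.0117). A replicate block for the mouse compares the 2 hemispheres of each animal. Under it, Ptgs2 was called in BLZ945 (log2 fold change 2.25, edgeR adjusted p = 9.37e-05) and for the average (1.71, adjusted p = 2.03e-05). In CTL it was not called under the block (1.17, adjusted p = 0.0554).

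Pla2g4a, the phospholipase that releases arachidonic acid, was likewise higher ipsilaterally in 8 of 8 mice, at 4.10 ± 1.51 and 6.21 ± 1.62 CPM in CTL and 3.35 ± 1.08 and 6.60 ± 2.09 CPM in BLZ945 (contralateral and ipsilateral, n = 4 each). Its averaged log2 fold change of 0.79 (SE 0.216) was not called by the unpaired edgeR test (adjusted p = 0.0603). With the mouse as a replicate block, which compares the 2 hemispheres of each animal, it was called in BLZ945 (log2 fold change 0.96, adjusted p = 0.0121) and for the average (0.80, adjusted p = 0.00187). Ptges, the prostaglandin E2 synthase, was higher in 7 of 8 mice, from 3.85 CPM to 6.32 CPM on average over both treatments, and highest in the ipsilateral library of mouse C2 at 13.2 CPM. Its averaged log2 fold change of 0.69 (SE 0.229, edgeR adjusted p = 0.134) was 0.62 under the same block, where it was called (adjusted p = 0.0424).

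Ptgs1 was higher ipsilaterally in 8 of 8 mice by a small amount, from 15.2 to 19.7 CPM on average, with a log2 fold change of 0.37 (SE 0.124, edgeR adjusted p = 0.136) below the threshold of 0.59. Under the mouse block the change was 0.38 (edgeR adjusted p = 0.00596), still below that threshold. Alox5ap stood at 1.91 and 2.87 CPM on average, higher in 6 of 8 mice (log2 fold change 0.58, SE 0.272, edgeR adjusted p = 0.349). Ptgds, by far the most abundant member in tissue, measured 643 ± 61.0 CPM contralaterally and 571 ± 82.5 CPM ipsilaterally in CTL, and 616 ± 201 and 616 ± 241 CPM in BLZ945 (averaged log2 fold change -0.09, SE 0.166, edgeR adjusted p = 0.901). Hpgds, Ptger4, Alox5 and Ltc4s had averaged log2 fold changes from -0.37 to 0.14, none called, and the last 3 lay at 0.301 to 2.93 CPM per library, a level at which only large changes are detectable. The median log2 fold change of the 10 members was 0.25, beside -0.01 over all genes tested.

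Some markers of other cells also differed between the hemispheres in tissue. When both treatments were averaged, 2 of the 4 tested neutrophil markers, 2 of the 6 endothelial markers, 1 of the 6 monocyte markers and 1 of the 6 astrocyte markers were called higher, and 2 of the 7 tested microglia markers were called lower. The neutrophil markers summed to 0.107 to 1.40 CPM contralaterally and 0.547 to 4.61 CPM ipsilaterally, with Ly6g at 0 in 3 of the 4 groups. They went from 0.418 to 0.902 CPM in mouse C3 and from 0.107 to 3.49 CPM in mouse C2, the mice with the highest ipsilateral Ptgs2, and from 0.279 to 3.78 CPM in mouse C4, whose ipsilateral Ptgs2 was lowest. An astrocyte marker was also called higher in each treatment alone. Their part in the Ptgs2 result was not tested.

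**Figure D2:**
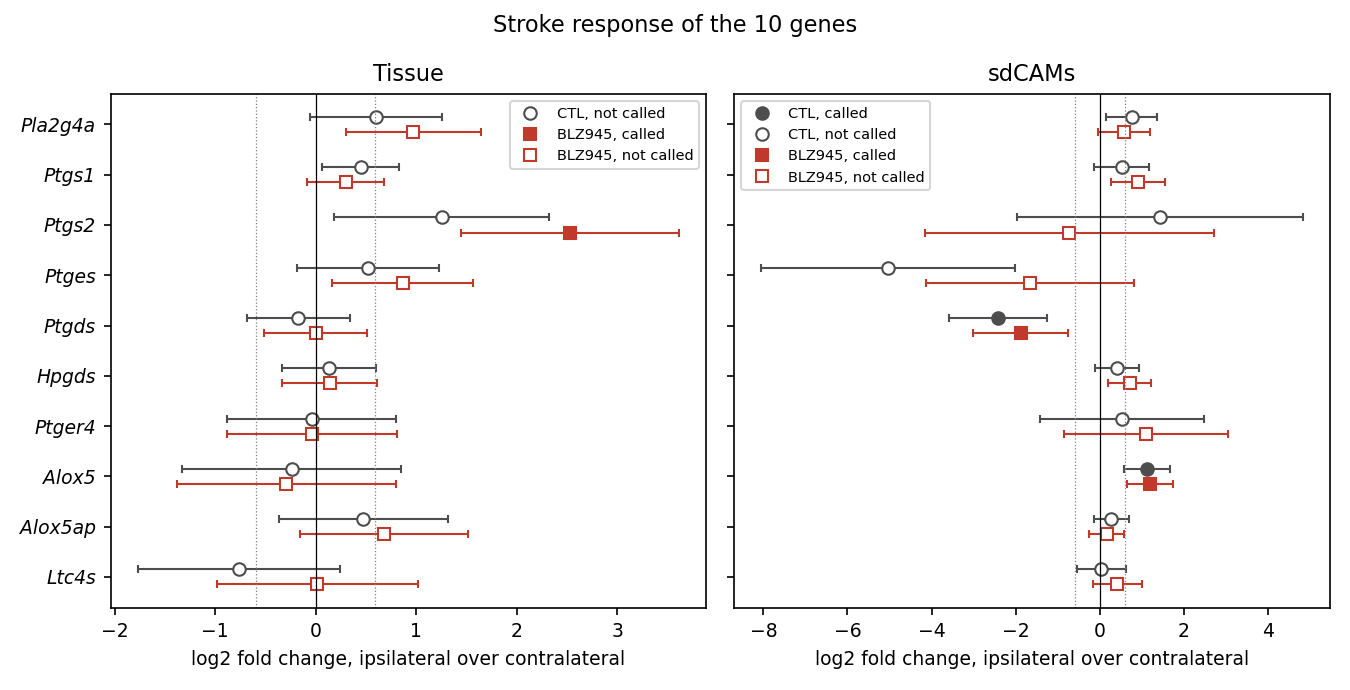
Log2 fold change of ipsilateral over contralateral libraries (x axis) for the 10 genes in tissue and in sdCAMs, for CTL (circles) and BLZ945 (squares). Bars are approximate 95% confidence intervals, derived from the fold change and F statistic of edgeR. Filled symbols mark called genes and dotted lines the threshold of 0.59. Ptgs2 is filled for BLZ945 tissue, and Alox5 and Ptgds are filled for both treatments in sdCAMs, while the CTL point of Ptges there rests on 4, 0 and 4 ipsilateral counts.

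In sdCAMs the same comparison gave a different set. Alox5, the lipoxygenase that starts leukotriene synthesis, was higher ipsilaterally in 6 of 6 mice with both libraries. In CTL sdCAMs it measured 69.8, 50.0, 60.5 and 77.5 CPM contralaterally in mice A2, A3, A4 and B1, and 117, 175 and 126 CPM ipsilaterally in mice A2, A4 and B1. In BLZ945 sdCAMs it measured 64.6, 52.5, 33.0 and 64.2 CPM contralaterally in mice C2, C3, C4 and D1, and 120, 121 and 127 CPM ipsilaterally in mice C3, C4 and D1. Every ipsilateral library was above every contralateral one.

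The Alox5 log2 fold change was 1.12 in CTL (SE 0.244, edgeR adjusted p = 0.0252), 1.20 in BLZ945 (SE 0.245, adjusted p = 0.0113) and 1.16 for the average (SE 0.173, adjusted p = 0.000521). Of the 10 members, Alox5 was the only one called higher in either treatment alone, where 0.426% of genes in CTL and 1.2% in BLZ945 were called higher. With the mouse as a block, the CTL call of Alox5 was lost (log2 fold change 1.00, edgeR adjusted p = 0.103) and the BLZ945 call held (1.35, adjusted p = 0.0167). Leaving out any 1 of the 4 CTL mice also ended the CTL call (adjusted p from 0.0548 to 0.191), as did leaving out mouse C3 or C4 for the BLZ945 call (0.0746 and 0.0607). With the 2 degraded libraries kept, no Alox5 call remained (edgeR adjusted p = 0.182 for the average, log2 fold change 0.90).

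The members that act beside Alox5 did not pass the test. Alox5ap stood at 162 CPM contralaterally and 188 CPM ipsilaterally over both treatments, with an averaged log2 fold change of 0.22 (SE 0.134, edgeR adjusted p = 0.295). Ltc4s had an averaged log2 fold change of 0.23 (SE 0.186, adjusted p = 0.455), with 80.4 CPM contralaterally and 92.8 CPM ipsilaterally. The 95% confidence interval of the averaged Alox5ap change, -0.08 to 0.51, lay below that of Alox5, 0.77 to 1.54, but no test compared the 2 genes.

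**Figure D3:**
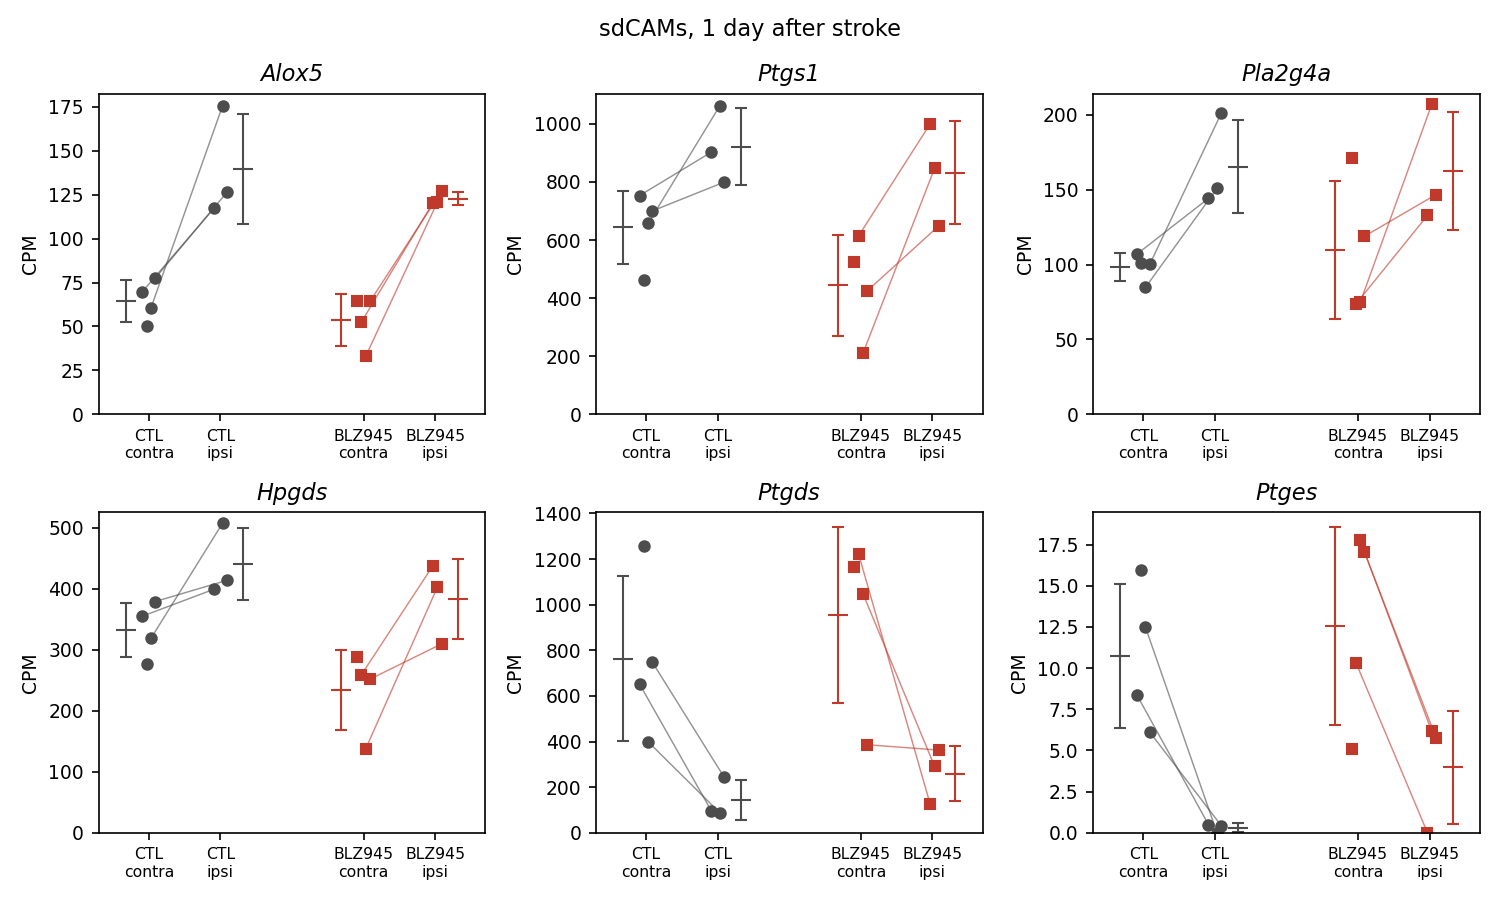
Levels of 6 genes in sdCAMs (y axis, CPM) by treatment and hemisphere, 1 point per library, with lines joining the 2 hemispheres of a mouse where both libraries were used and bars giving the mean ± SD of 4 contralateral or 3 ipsilateral libraries. Alox5 is higher and Ptgds lower in all ipsilateral libraries, and Ptges is at 0 to 0.502 CPM in the ipsilateral CTL libraries.

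Ptgs1, Pla2g4a and Hpgds were higher ipsilaterally in 6 of 6 mice as well. Ptgs1 stood at 643 ± 127 CPM contralaterally (n = 4) and 921 ± 132 CPM ipsilaterally (n = 3) in CTL, and at 444 ± 174 and 832 ± 176 CPM in BLZ945. Pla2g4a stood at 98.2 ± 9.46 and 165 ± 31.1 CPM in CTL, and at 110 ± 46.0 and 162 ± 39.5 CPM in BLZ945. With both treatments averaged, Ptgs1 (log2 fold change 0.71, SE 0.206, edgeR adjusted p = 0.0290) and Pla2g4a (0.66, SE 0.194, adjusted p = 0.0314) were called with Alox5, so that 3 of 10 members were called higher, against 3.91% of all genes. Hpgds stood at 283 CPM contralaterally and 412 CPM ipsilaterally, and its log2 fold change of 0.56 (SE 0.163, edgeR adjusted p = 0.0303) missed the threshold of 0.59.

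These smaller increases depended on the scaling and on single mice. The median log2 fold change of all genes in sdCAMs was -0.16 for the average with TMM and -0.32 with total counts, where Ptgs1 (0.55, edgeR adjusted p = 0.0820) and Pla2g4a (0.49, adjusted p = 0.101) were no longer called. Of all genes called for the average, 715 of 2745 were higher with TMM and 283 of 2605 with total counts. Leaving out mouse A3, A4 or C4 ended the averaged Ptgs1 call, at log2 fold changes of 0.65, 0.66 and 0.589. The edgeR adjusted p values were 0.0517, 0.0973 and 0.0439, so that without C4 only the fold change threshold was missed. The averaged Pla2g4a call was lost without mouse A4, B1, C3, C4 or D1, at 0.48 to 0.71. It was also lost with DESeq2 size factors in edgeR (0.58) and with all 16 libraries (0.35). With DESeq2 it missed only the fold change threshold (0.58, DESeq2 adjusted p = 0.0240). Under the mouse block, Ptgs1 was also called in BLZ945 alone (log2 fold change 1.10, edgeR adjusted p = 0.0474).

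Groups that do not overlap were more frequent than calls in sdCAMs. In CTL, 4 of 10 members (Alox5, Ptgs1, Pla2g4a and Hpgds) had all ipsilateral libraries above all contralateral ones, against 5.7% of all genes, and 2 members (Ptgds and Ptges) had all below, against 10.2%. In BLZ945, Alox5, Ptgs1 and Hpgds (3 of 10) were above, against 7.44% of genes, and 1 member, Ptgds, was below, against 12.4%. The median log2 fold change of the 10 members for the average was 0.46, beside -0.16 over all genes tested.

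The 2 synthases that fell were Ptgds and Ptges. In CTL sdCAMs, Ptgds measured 652, 1258, 399 and 747 CPM contralaterally in mice A2, A3, A4 and B1, and 97.2, 87.8 and 244 CPM ipsilaterally in mice A2, A4 and B1. In BLZ945 sdCAMs it measured 1166, 1221, 1048 and 386 CPM contralaterally in mice C2, C3, C4 and D1, and 124, 292 and 363 CPM ipsilaterally in mice C3, C4 and D1. It was lower ipsilaterally in 6 of 6 mice, though in mouse D1 the 2 hemispheres differed by only -0.09 on the log2 scale.

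The Ptgds log2 fold change was -2.42 in CTL (SE 0.521, edgeR adjusted p = 0.0232), -1.88 in BLZ945 (SE 0.508, adjusted p = 0.0425) and -2.15 for the average (SE 0.363, adjusted p = 0.00124). It was the only one of 10 members called lower in CTL, where 2.36% of all genes were, and in BLZ945, where 4.41% were. With the mouse as a block the values were -2.18 in CTL (edgeR adjusted p = 0.0506) and -1.75 in BLZ945 (adjusted p = 0.0748), neither called, and -1.97 for the average (adjusted p = 0.00539). The averaged call held under all 15 alternatives, with adjusted p up to 0.00741. The CTL call was lost without mouse A2, A3 or A4, and the BLZ945 call without mouse C2, C3 or C4.

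Ptges was low in sdCAMs, with 40 to 176 counts per contralateral library. Ipsilaterally the CTL libraries of mice A2, A4 and B1 held 4, 0 and 4 counts, and the BLZ945 libraries of mice C3, C4 and D1 held 0, 49 and 56. The level was 10.7 ± 4.37 CPM contralaterally and 0.310 ± 0.271 CPM ipsilaterally in CTL (SD, n = 4 and 3). In BLZ945 it was 5.07 to 17.8 CPM contralaterally and 0 to 6.15 CPM ipsilaterally, and the groups overlapped. Ptges was called for the average (edgeR adjusted p = 0.0172), where 2 of 10 members were called lower against 11.1% of all genes. It was not called in CTL (adjusted p = 0.0612), where the ipsilateral mean lay below the limit of 3 counts. No fold change is therefore given for CTL or for the average, which includes it. In BLZ945 Ptges was not called either (log2 fold change -1.66, SE 1.11, adjusted p = 0.391). The averaged call was lost without mouse A4 (adjusted p = 0.0543) or C4 (0.0511).

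Markers of other cell types also differed between the hemispheres in sdCAMs. Ptgds lay at 386 CPM or more in contralateral libraries and at 363 CPM or less in ipsilateral ones. The summed endothelial, oligodendrocyte, mural and choroid plexus markers were lower ipsilaterally in 6 of 6 mice too, the last with medians of 176 and 7.73 CPM in CTL and 12834 and 464 CPM in BLZ945. The leptomeningeal fibroblast markers were lower in 5 of 6 mice, from 311 to 33.6 CPM in mouse C3 but only from 575 to 464 CPM in mouse C4, and higher in mouse D1 (149 and 409 CPM). Ptgs1 was lowest, at 210 CPM, in the contralateral library of mouse C4, which had the lowest microglia sum of 5628 CPM, and highest, at 1062 CPM, in the ipsilateral library of mouse A4, which had the highest, 25619 CPM. Of the border macrophage markers, 7 of 8 were called higher ipsilaterally for the average, and of the 7 tested microglia markers 1 was. The part of these cells in the changes of the members was not tested.

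**Figure D4:**
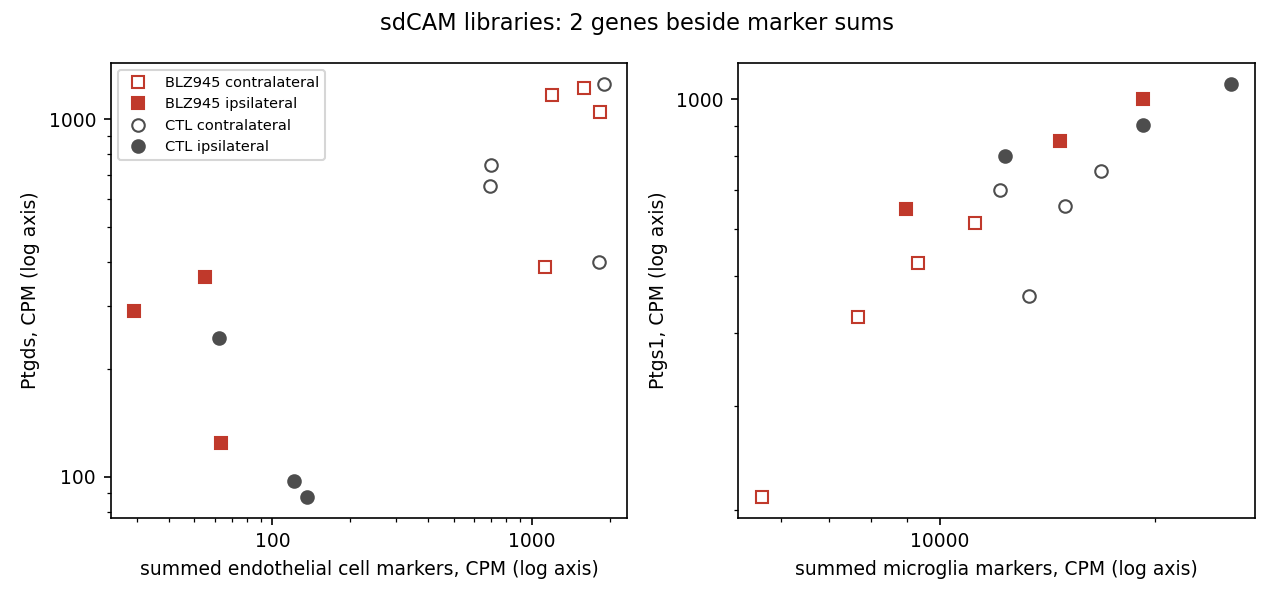
Each point is 1 sdCAM library (open, contralateral, filled, ipsilateral, circles, CTL, squares, BLZ945), with both axes in CPM on a log scale. Left, Ptgds against the sum of 6 endothelial markers, where ipsilateral libraries lie at 29.2 to 136 CPM of markers and 87.8 to 363 CPM of Ptgds. Right, Ptgs1 against the sum of 7 microglia markers, from 210 CPM of Ptgs1 at 5628 CPM of markers to 1062 CPM at 25619 CPM.

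Ptgs2 and the receptor gene Ptger4 were not called in sdCAMs and varied widely between mice. Ptgs2 held 0 and 1 counts in the 2 libraries of mouse A4, and 437 and 1476 counts in those of mouse B1 (contralateral, then ipsilateral). In CPM, the pairs were 24.9 and 12.4 in mouse A2, 47.7 and 158 in B1, 15.9 and 0.366 in C3 and 151 and 119 in D1, and mouse C4 held 585 and 363 counts. Among the 6 mice it was higher ipsilaterally in B1, lower in 4 and under the detection limit on both sides in A4, and the averaged log2 fold change was 0.35 with a 95% confidence interval of -2.04 to 2.74 (edgeR adjusted p = 0.900). A change of the size seen in tissue was thus within the interval. The group mean of Ptgs2 was highest, at 91.3 CPM, in contralateral BLZ945 libraries. That sdCAM group had the highest median sum of neutrophil markers, and also of mast cell, endothelial, mural and choroid plexus markers. The part of these cells in the Ptgs2 values was not tested.

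Ptger4 ranged from 0.505 CPM in the contralateral library of mouse C4 to 81.1 CPM in the ipsilateral library of mouse D1. It was higher ipsilaterally in 5 of 6 mice, with an averaged log2 fold change of 0.80 (SE 0.618, 95% confidence interval -0.57 to 2.18, edgeR adjusted p = 0.414). The difference between hemispheres was 6.25 on the log2 scale in mouse C4, 1.72 in C3, 0.80 in A4, 0.59 in B1, 0.37 in D1 and -0.07 in A2. Under the mouse block the averaged value was 1.41 (edgeR adjusted p = 0.192). Both no change and an increase lay within the interval. The 2 degraded libraries, which were left out, held 38 and 4 counts of Ptgs2 in mice A3 and C2.

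**Figure D5:**
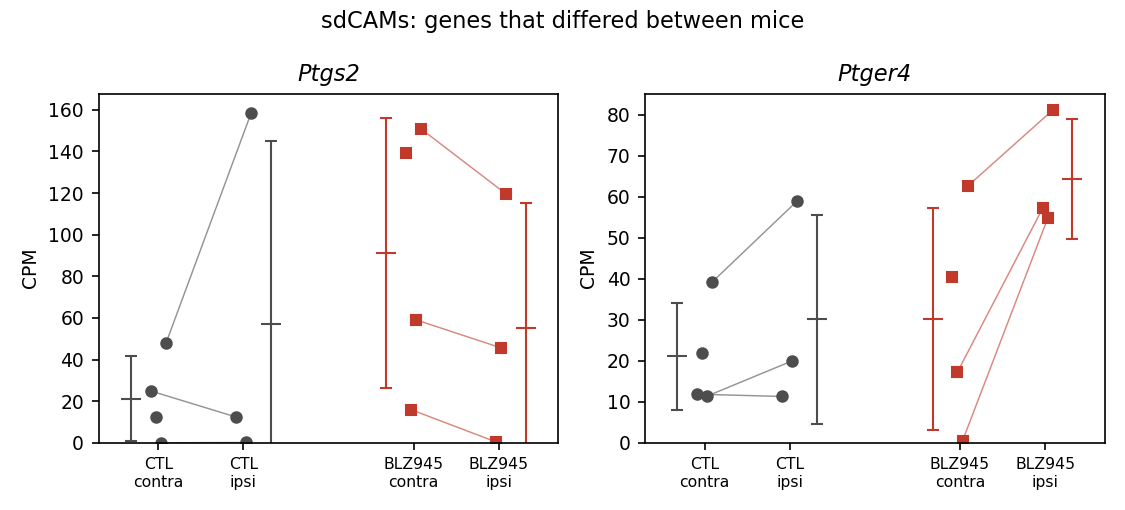
Ptgs2 and Ptger4 in sdCAMs (y axis, CPM) by treatment and hemisphere, 1 point per library, with lines joining the 2 hemispheres of a mouse and bars giving the mean ± SD of 4 contralateral or 3 ipsilateral libraries. Ptgs2 runs from 0 to 158 CPM and Ptger4 from 0.505 to 81.1 CPM, with both hemispheres overlapping in each treatment.

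The comparison of treatments asked whether repopulated mice differed in the response of these genes. No member was called for the difference of the stroke response between BLZ945 and CTL, nor for BLZ945 against CTL on either side, in tissue or in sdCAMs, by edgeR or DESeq2. In these 6 comparisons edgeR called 0% of all genes, with 386 to 1133 genes at an unadjusted p under 0.05, while DESeq2 called 0 or 1 gene in tissue and 39 to 123 in sdCAMs. An unadjusted p under 0.05 was seen for 1 member on the ipsilateral side of tissue (Ptgs2), 1 on the ipsilateral side of sdCAMs (Ptges) and 1 on the contralateral side of sdCAMs (Hpgds).

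For Ptgs2 in tissue the response was 1.28 larger on the log2 scale in BLZ945 than in CTL (SE 0.689, 95% confidence interval -0.22 to 2.78, edgeR adjusted p = 1.00). Ipsilateral levels were 56.8 CPM in BLZ945 and 23.7 CPM in CTL (log2 fold change 1.26, SE 0.464, edgeR adjusted p = 0.958), and contralateral levels were 9.84 and 9.87 CPM. The 4 ipsilateral BLZ945 values, 13.7 to 101 CPM, spanned those of CTL, 14.9 to 42.3 CPM. The call in BLZ945 and its absence in CTL do not show that the responses differ.

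For Ptges in sdCAMs, ipsilateral libraries held 3.97 ± 3.45 CPM in BLZ945 and 0.310 ± 0.271 CPM in CTL (n = 3 each, edgeR adjusted p = 0.838), the latter below the limit of 3 counts. The values overlapped, since the library of mouse C3 was at 0. Contralateral Hpgds was 234 ± 66.2 CPM in BLZ945 and 332 ± 44.9 CPM in CTL (n = 4 each, log2 fold change -0.51, SE 0.215, adjusted p = 0.759), with the lowest value, 138 CPM, in mouse C4. For Alox5 the responses differed by 0.08 (SE 0.348, edgeR adjusted p = 1.00), and ipsilateral levels were 140 ± 31.3 CPM in CTL and 123 ± 3.77 CPM in BLZ945.

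Other genes of the pathway, 61 of which were in the tables, were counted in the same fits. In tissue, 58 were tested and none was called in any of the 6 comparisons by edgeR, with 9 at an unadjusted p under 0.05 for the averaged treatments and 0 to 7 in the other 5 comparisons. In sdCAMs, 50 were tested, none was called by edgeR in the 3 comparisons that involve the treatment (3 to 6 at an unadjusted p under 0.05), and 14 were called for the average of the hemisphere comparison, 5 higher and 9 lower, where 3.91% of all genes were called higher and 11.1% lower. The higher ones were Daglb and Pla2g15, which act on lipids that can yield arachidonic acid, and, named after their values were seen, Tbxas1 (thromboxane synthase), Cysltr1 (a cysteinyl leukotriene receptor) and Lpcat2. In BLZ945, Daglb rose from 186 ± 41.5 to 411 ± 109 CPM (log2 fold change 1.14, SE 0.225, edgeR adjusted p = 0.00942). Pla2g15 rose from 298 ± 112 to 725 ± 20.5 CPM (1.28, SE 0.286, adjusted p = 0.0176).

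The pathway genes that fell in sdCAMs were mostly low. Ptgis, the prostacyclin synthase of vessels, fell in CTL from 17.4 ± 12.4 to 0.149 ± 0.162 CPM (n = 4 and 3, edgeR adjusted p = 0.0198). Cysltr2, another cysteinyl leukotriene receptor, was at 5.92 ± 1.86 CPM contralaterally and at 0 counts in all 3 ipsilateral CTL libraries, at least 16.3-fold lower against a floor of 3 counts per library (adjusted p = 0.00531). Alox12, the platelet-type lipoxygenase, was at 2.87 ± 1.40 CPM in CTL and 2.72 ± 0.891 CPM in BLZ945 and at 0 counts in all 6 ipsilateral libraries, at least 7.93-fold and 7.76-fold lower (adjusted p = 0.0356 and 0.0236). Plaat3, a phospholipase, fell in BLZ945 from 66.1 ± 20.3 to 22.6 ± 2.48 CPM (log2 fold change -1.55, SE 0.343, adjusted p = 0.0172).

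For the average of both treatments, the 8 pathway genes with the largest changes were all lower: Alox12, Slco2a1, Pla2g5, Cysltr2, Ptgis, Ggt1, Ephx1 and Plaat3. Ephx1, the microsomal epoxide hydrolase, fell from 127 to 42.8 CPM (log2 fold change -1.56, SE 0.367, edgeR adjusted p = 0.0101). Pla2g5, a secreted phospholipase, fell from 10.2 to 0.259 CPM (adjusted p = 0.00528). Ptgis, at 21.7 CPM contralaterally and 1.11 CPM ipsilaterally, was the gene whose pattern over the 14 libraries was most like that of Ptgds (Pearson r of log2 CPM 0.957 among 13828 genes). Slco2a1, the prostaglandin transporter, and Ggt1, which trims cysteinyl leukotrienes, had overlapping groups and stood at 3.64 and 3.44 CPM or less on average in each hemisphere. The median over the 50 pathway genes was -0.03, against -0.16 for all genes.

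As a description of shared pattern, with no test since libraries share hemisphere, mouse and depth, the 3 genes with the highest correlation of log2 CPM were listed for each member with a mean of 1 CPM or more. In sdCAMs (14 libraries), Ptgs1 and Hpgds were each other's most similar gene (Pearson r 0.971), ahead of Laptm5 and Ints6l for Ptgs1 and Marcks and Cx3cr1 for Hpgds. Alox5 was most like Cyfip1, Asah1 and Eml4 (r 0.959 to 0.977), and Ltc4s most like Slc2a5 (r 0.959), which is one of the microglia markers. Ptgs2 was most like Arg1, Cxcl3 and Arf6 (r 0.875 to 0.904), Ptger4 most like Khsrp, Slc35e1 and Il7r (r 0.901 to 0.945), and Ptges most like Matn2, Aif1l and Sgpp2 (r 0.918 to 0.947). Pla2g4a was most like Slc3a2, Plek and Nop56 (r 0.895 to 0.930), Alox5ap most like Phf11b, Psmb8 and Nceh1 (r 0.835 to 0.849), and Ptgds, after Ptgis, most like Serping1 and Mt2 (r 0.936 and 0.931).

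In tissue (16 libraries, 14317 genes) the most similar genes were different ones. Ptgs2 was most like Klf6, Hk3 and Ms4a6d (r 0.863 to 0.873), Ptges most like Emcn, Il11 and Igfbp3 (r 0.890 to 0.922), and Ptgs1 most like Prex1, Ldha and Sema4a (r 0.890 to 0.945). Pla2g4a was most like Cyyr1, Zfp36 and Jpt2 (r 0.882 to 0.895). Ptgds was most like Sugct, Cpxm2 and Bmp6 (r 0.848 to 0.870), and Ltc4s most like Perp, Ogn and Spint2 (r 0.835 to 0.880). Hpgds, Ptger4 and Alox5ap had highest values of 0.830, 0.826 and 0.798, with Plekha1, Mtfr1 and Fcgr1. Between Ptgs1 and Hpgds the correlation was 0.601 in tissue, and between Ptges and Pla2g4a it was 0.812 in tissue and -0.54 in sdCAMs.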

How the data were processed

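RNA was sequenced as single 50-cycle reads from Nextera XT libraries. Per the labels, the authors deposited raw read counts per gene, with bcl2fastq 2.20, STAR 2.7.11a, featureCounts 2.0.8 and DESeq2 1.46.0 named in the submitters' processing notes. Genome build and strand setting for these tables are not given in the sources used here. Counts were analysed in R 4.3.3 with edgeR 4.0.16 (TMM, quasi-likelihood F test, two-sided, 1 model of 4 groups per table) after removal of genes whose counts summed to under 8 in tissue or under 7 in sdCAMs, and after a test on simulated data. DESeq2 1.42.0 was an alternative. Log2 CPM for similarity used a prior count of 2. The 10 members, the pathway list and the markers were chosen with earlier results of these data known. Named were all members, the other pathway genes called in a comparison (the 8 largest where more were) and the 3 most similar genes for each member. Akr1b3 and Zadh2 were not matched by name.

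The 2 hemispheres come from the same mouse. Deviations from the group means correlated within a mouse (tissue median r 0.436, lowest 0.214, 8 mice; sdCAM 0.122, lowest 0.0451, 6 mice) and were -0.12 and -0.04 between mice. The main fit was unpaired, with the mouse as a replicate block as an alternative. Mice are the replicates. All libraries carry 1 batch label. The floor of 3 counts covers counting error only.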

Additional observations from a re-analysis of the deposited data

Results flagged for a closer look

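In 60 sets of values (the members' levels in groups of 4 libraries) a gap test at the 95% level singled out 2 values, fewer than the 1 in 20 that chance gives. Ltc4s in the ipsilateral tissue library of mouse C2 (BLZ945) was at 2.93 CPM, against 0.699 to 0.841 CPM in the other 3 mice. In the contralateral sdCAM library of mouse A2 (CTL), Ltc4s was at 115 CPM, against 84.6 to 88.4 CPM in the other 3. The same tissue library of mouse C2 held 4312 CPM of choroid plexus markers and 117 CPM of leptomeningeal fibroblast markers, the highest sums of both among the 16 tissue libraries.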

How the results depend on the processing

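No called value of a member changed sign under any alternative run. In tissue, 1 member was called in BLZ945 and 1 for the average of both treatments. Both counts were 0 with the hemispheres of mouse A3 exchanged, and the BLZ945 count was 0 when its libraries were fitted alone and 0 to 1 when 1 mouse was left out. With the replicate block for the mouse they were 2 and 3, and the count for the average was 2 with DESeq2 and 2 with total counts. In sdCAMs the counts were 2 in CTL, 2 in BLZ945 and 5 for the average. With all 16 libraries they were 0, 0 and 2. The replicate block gave 0 in CTL, DESeq2 gave 4 in BLZ945, and the average gave 3 with total counts and 3 with a log2 threshold of 1. Leaving out 1 mouse gave 0 to 3 in CTL, 0 to 2 in BLZ945 and 2 to 6 for the average. The cause of these changes was not tested, beyond fewer libraries where a mouse was left out. The block changed no other count of members, and could not be fitted for BLZ945 against CTL, where each mouse had 1 treatment. With the hemispheres of mouse A3 exchanged, tissue calls over all genes went from 84 to 0 in CTL, 220 to 6 in BLZ945 and 381 to 1 for the average. DESeq2 called 1762 genes in CTL sdCAMs where edgeR called 510. With 3 ipsilateral sdCAM libraries per treatment and tissue levels near 1 CPM for Alox5, Ltc4s and Ptger4, small changes of these genes were not detectable.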
